A study of Mus musculus with 10 samples.

Results

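The genes described here are enzymes of sterol and fatty acid synthesis: Hmgcs1, Idi1, Fdps, Fdft1, Sqle and Cyp51 of the sterol pathway, and Fasn and Scd1 of fatty acid synthesis. They were taken by name, as the probes whose gene symbol in the platform annotation was one of these 8, and probes of 1 gene were averaged. Of the 8 genes, 7 were measured, each by 1 non-control probe, among 20243 features in all, of which 15097 carried a gene symbol. No probe of the table is named Hmgcs1, so that enzyme, which makes HMG-CoA, was not analysed here.

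The cells were FDB1, a mouse myeloid progenitor line that needs interleukin-3 (IL-3) to grow, in 2 derived lines. One line expressed FI-Delta, an activated mutant of the beta chain shared by the receptors for GM-CSF, IL-3 and IL-5, and the other expressed the same mutant with 1 tyrosine changed to phenylalanine (FI-Delta Y577F, called Y577F below). RNA was taken at 0 h from cells growing with 500 U/mL IL-3 and 10% serum, and at 72 h after the cells had been washed 3 times and kept without the factor. No cells were kept in IL-3 for 72 h, so loss of IL-3, washing and time in culture cannot be told apart in any 72 h change. The design text gives 2 biological replicates for each line. The sources used here do not give how the receptor genes were introduced, what drives them, or whether a line is 1 clone or a pool, so a difference between the lines may belong to the lines as well as to the mutation.

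The RNAs were compared directly on 10 spotted 2-colour arrays. There were 3 arrays of FI-Delta cells at 72 h over 0 h (of which arrays 1 and 2 are a dye swap of the same RNAs), 2 arrays of Y577F cells at 72 h over 0 h, 3 arrays of Y577F over FI-Delta cells at 0 h and 2 of Y577F over FI-Delta cells at 72 h. They are called below the FI-Delta time arrays, the Y577F time arrays, the 0 h line arrays and the 72 h line arrays, and their numbers are names only. Each value was read as a log2 ratio of Cy5 over Cy3, where -1 stands for a 2-fold lower RNA level, and every array was turned by its title to read 72 h over 0 h or Y577F over FI-Delta. Base 2 and Cy5 over Cy3 are assumptions: another base would rescale every fold, and Cy3 over Cy5 would turn every sign given here. Because a ratio holds no level, levels of different genes were not compared, the presence of the myeloid markers that define these cells could not be checked, and fewer expressing cells could not be told from less RNA per cell. Estimates (with standard errors, SE) came from 1 limma model over 9 hybridisations, the dye swap counting as 1, and a gene was called when its Benjamini-Hochberg adjusted p over all 20243 features was below 0.05. The arrays share RNA extracts, so their p-values treat as independent some values that are not.

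The sterol pathway builds cholesterol from acetyl-CoA by way of mevalonate and its isoprenoid products, and fatty acid synthase builds saturated chains from the same acetyl-CoA. The genes of both pathways are known targets of the SREBP transcription factors, which are released from the endoplasmic reticulum when membrane sterol is low, and dividing cells use both pathways to make membrane. Macrophages, in contrast, are known for taking up sterol from the material they engulf, freeing it in lysosomes and exporting it.

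For 2 of these genes, Idi1 and Cyp51, whose values ran most like the mean of all 7 (below), the 250 bases before the annotated start are shown from RefSeq on build GRCm38.p6, with letters matching 3 short motifs in capitals. The promoter table matched 4 of the 8 genes. The motifs searched on both strands were the NF-Y box CCAAT, the GC box GGGCGG bound by Sp1-type factors, and TCACNCC, the core letters of a sterol regulatory element. The Idi1 sequence is chr13:8885356-8885605 on the plus strand and the Cyp51 sequence is chr5:4104698-4104947 on the minus strand, each written 5′ to 3′.
Idi1: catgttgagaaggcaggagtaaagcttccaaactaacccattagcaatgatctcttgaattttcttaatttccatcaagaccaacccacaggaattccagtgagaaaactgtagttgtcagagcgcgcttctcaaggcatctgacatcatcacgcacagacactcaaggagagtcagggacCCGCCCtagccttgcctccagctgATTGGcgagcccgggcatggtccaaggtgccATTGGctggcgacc
Cyp51: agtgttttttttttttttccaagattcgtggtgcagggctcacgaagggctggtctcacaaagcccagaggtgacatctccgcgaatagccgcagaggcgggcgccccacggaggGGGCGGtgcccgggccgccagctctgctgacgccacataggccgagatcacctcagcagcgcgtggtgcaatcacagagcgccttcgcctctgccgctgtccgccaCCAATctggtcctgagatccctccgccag
The Idi1 window held 2 matches of CCAAT, both on the other strand and so printed as ATTGG, and 1 of GGGCGG, also on the other strand. The Cyp51 window held 1 match of each of these motifs, and neither window held TCACNCC. Of the 4 matched windows, CCAAT was in 4, GGGCGG in 3 and TCACNCC in 1, that of Hmgcs1, with 2 matches. The Fasn window among them lies inside the annotated span of its gene. Among 32851 windows of the same length, 33.8% held CCAAT, 32.7% held GGGCGG and 13.4% held TCACNCC, so a match to either box is common and is given as a description of these letters only.

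After 72 h without IL-3, RNA for 6 of the 7 enzymes fell in Y577F cells, by 1.54-fold to 4.69-fold, and the other enzyme, Sqle, was not called. In FI-Delta cells 2 of the 7 fell, Scd1 by 1.85-fold and Fasn by 1.49-fold, and none rose (Fdps was called higher with array weights). Over all features 8.75% were called lower in Y577F cells and 2.97% in FI-Delta cells (18.0% and 8.16% in either direction). The median log2 change of the 7 enzymes was -1.02 in Y577F cells and -0.30 in FI-Delta cells, against 0.01 and -0.01 over all features. The difference between the lines in the 72 h change was itself called for 6 of the 7 enzymes, each with the lower value in Y577F cells, where 4.91% of all features were called in that direction and 9.24% in either. Fasn was the exception.

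Idi1 interconverts isopentenyl diphosphate and dimethylallyl diphosphate, the building blocks of all isoprenoids. On FI-Delta time arrays 1, 2 and 3 its log2 ratio was -0.15, -0.28 and -0.53, and on Y577F time arrays 1 and 2 it was -1.10 and -1.26. On the 0 h line arrays it was -0.26, 0.26 and 0.37, and on the 72 h line arrays -0.70 and -0.92. All 5 time arrays were below 0, those of Y577F cells lay below every one of FI-Delta cells, and the 0 h line arrays fell on both sides of 0. The modelled change was -1.22 ± 0.12 (SE) in Y577F cells, a 2.32-fold fall (limma adjusted p = 4.1e-05), and -0.35 ± 0.13 in FI-Delta cells, which was not called (adjusted p = 0.14). The change differed between the lines by -0.87 ± 0.14 (limma adjusted p = 0.0031).

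Fdps, which joins isoprene units into farnesyl diphosphate at the branch from which sterols, ubiquinone, dolichol and prenylated proteins are made, showed the largest difference between the lines among these enzymes. Its log2 ratio was 0.17, 0.45 and -0.05 on the FI-Delta time arrays, and -1.71 and -1.78 on the Y577F time arrays. It was -0.08, -0.14 and 0.06 on the 0 h line arrays, and -1.77 and -2.04 on the 72 h line arrays. Thus the Fdps ratios between the lines lay on both sides of 0 while they grew in IL-3, and Fdps RNA was low on every array that held Y577F RNA of 72 h. The fitted change was -1.74 ± 0.09 in Y577F cells (3.33-fold lower, limma adjusted p = 3.9e-07) and 0.15 ± 0.10 in FI-Delta cells (95% interval -0.06 to 0.36, adjusted p = 0.44), although with array weights the latter was called (0.24, adjusted p = 0.041). The difference in change, -1.89 ± 0.11 (limma adjusted p = 5.2e-06), ranked 4 among all 20243 features by p-value and 18 by size. RNA of Fdps pseudogenes, if present, could not be told apart by the probe.

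Fdft1 is squalene synthase, which commits farnesyl diphosphate to sterols. Its ratio on the FI-Delta time arrays was 0.09, 0.12 and 0.22, on the Y577F time arrays -0.75 and -0.68, on the 0 h line arrays 0.17, 0.05 and 0.30, and on the 72 h line arrays -0.56 and -0.43. The FI-Delta time arrays and the 0 h line arrays were thus all above 0, and the Y577F time arrays and 72 h line arrays all below. In Y577F cells Fdft1 fell by 0.66 ± 0.09, or 1.58-fold (limma adjusted p = 0.00024), in FI-Delta cells the estimate was 0.09 ± 0.09 (adjusted p = 0.66), and the difference in change was -0.75 ± 0.10 (adjusted p = 0.00073).

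Sqle, squalene epoxidase, a rate-limiting step of sterol synthesis, carried the smallest change in Y577F cells. It gave 0.23, 0.07 and 0.14 on the FI-Delta time arrays and -0.13 and -0.23 on the Y577F time arrays. On the line arrays it read 0.55, -0.11 and 0.19 at 0 h and 0.01 and -0.68 at 72 h. The time arrays of the lines did not overlap, but its line arrays fell on both sides of 0 at 0 h and again at 72 h. Neither the change in FI-Delta cells (0.30 ± 0.11, limma adjusted p = 0.13) nor that in Y577F cells (-0.23 ± 0.10, adjusted p = 0.17) was called, while their difference, -0.53 ± 0.12, was (adjusted p = 0.018). That call was lost without 0 h line array 1 (adjusted p = 0.09), without FI-Delta time array 1 (0.067), without 72 h line array 2 (0.14) and with no dye term, with or without the replicate block (0.13 each).

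Cyp51 removes a methyl group from lanosterol, late in the pathway. Its ratios were -0.13, -0.22 and -0.43 on the FI-Delta time arrays, -0.88 and -1.16 on the Y577F time arrays, 0.06, 0.39 and 0.52 on the 0 h line arrays, and -0.30 and -0.49 on the 72 h line arrays. As for Idi1, all 5 time arrays were below 0 and the lines did not overlap on them. The change was -1.02 ± 0.11 in Y577F cells (2.03-fold lower, limma adjusted p = 5.4e-05) and -0.30 ± 0.11 in FI-Delta cells (adjusted p = 0.15), with a difference of -0.72 ± 0.12 (adjusted p = 0.0041).

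Fasn, fatty acid synthase, makes palmitate. On the FI-Delta time arrays it stood at -0.35, -0.57 and -0.65 and on the Y577F time arrays at -0.51 and -0.64, so the lines overlapped. On the 0 h line arrays its ratio was -0.53, -0.05 and 0.27, and on the 72 h line arrays -0.45 and -0.10. It fell by 0.58 ± 0.13 in FI-Delta cells (1.49-fold, limma adjusted p = 0.015) and by 0.62 ± 0.12 in Y577F cells (1.54-fold, adjusted p = 0.0038). The difference was -0.05 ± 0.14 (95% interval -0.35 to 0.26, adjusted p = 0.88). These falls depend on the probe: 2 control spots that also carry the name Fasn went another way. The identifier of 1 of these spots holds the word Empty, so what it measures is uncertain. With both spots averaged in, the estimates were 0.18 ± 0.10 in FI-Delta cells (limma adjusted p = 0.36) and 0.07 ± 0.09 in Y577F cells (adjusted p = 0.69). The FI-Delta call was also lost without 0 h line array 1 (adjusted p = 0.051) or FI-Delta time array 3 (0.13) or with the replicate block and no dye term (0.075), and the Y577F call without Y577F time array 2 (0.057).

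Scd1, the desaturase that puts a double bond into saturated fatty acids, was the enzyme with the largest fall in each line. Its log2 ratio was -0.67, -1.26 and -1.01 on the FI-Delta time arrays and -2.11 and -2.25 on the Y577F time arrays. Both arrays of the FI-Delta dye swap, which hold the same RNAs, bracket the third array. The ratio was 1.02, 1.02 and 1.31 on the 0 h line arrays, all above 0, and 0.08 and -0.65 on the 72 h line arrays, which differed in sign. The change was -2.23 ± 0.12 in Y577F cells (4.69-fold lower, limma adjusted p = 4.4e-07) and -0.89 ± 0.13 in FI-Delta cells (1.85-fold, adjusted p = 0.0011), and the changes differed by -1.34 ± 0.14 (adjusted p = 0.00016). Scd1 has close paralogs, and RNA of other Scd genes may add to its probe's signal.

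**Figure D1:**
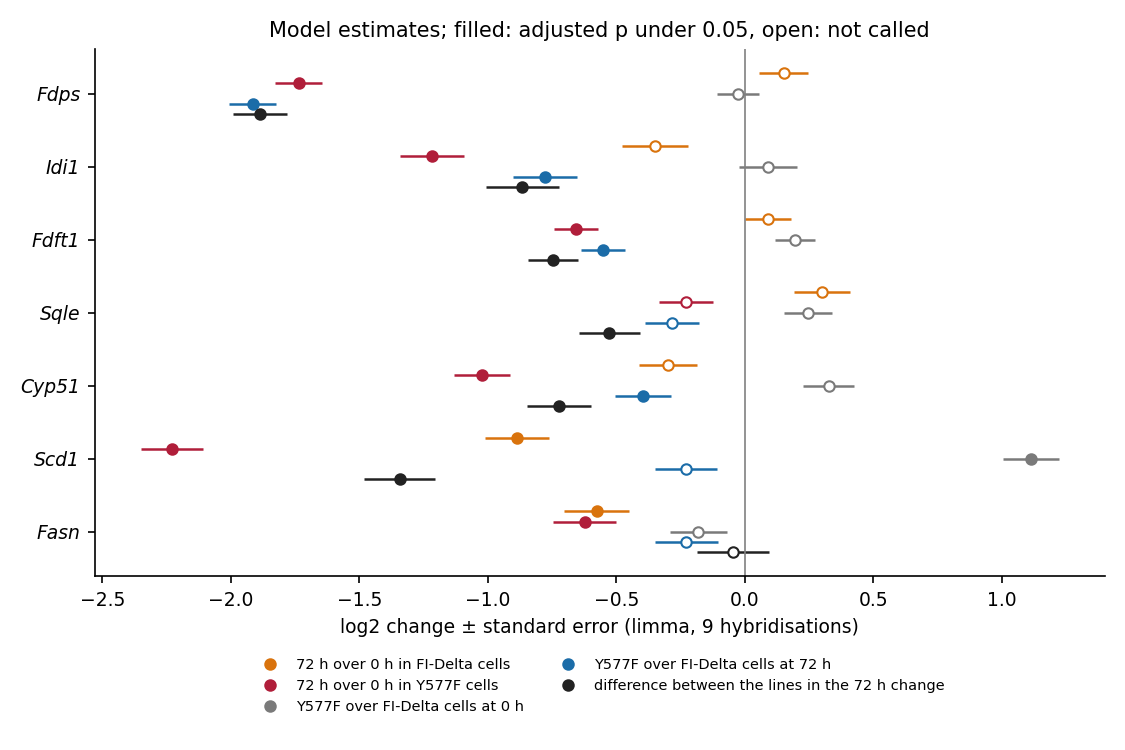
Estimated log2 change of each of the 7 enzymes in the comparisons of the design, with bars that show the standard error and not a confidence interval. In Y577F cells Scd1 (-2.23) and Fdps (-1.74) lie farthest below 0, and for Fasn the bar of the difference between the lines (-0.05) spans 0.

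The time arrays of the lines did not overlap for 6 of the 7 enzymes, with the Y577F arrays lower in each of them, as was the case for 12.8% of all features. The remaining enzyme was Fasn.

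While the lines grew in IL-3, Scd1 was the enzyme that differed between them. Its RNA was 2.16-fold higher in Y577F cells (1.11 ± 0.11, limma adjusted p = 0.00043) and higher on 3 of 3 arrays, and it ranked 18 by size among all features. It was the 1 enzyme of 7 called at 0 h, where 0.934% of features were called higher and 1.42% in either direction. Estimates for the other 6 ran from -0.18 ± 0.11 for Fasn to 0.33 ± 0.10 for Cyp51 (adjusted p = 0.56 and 0.18), and 4 of the 7 had an unadjusted p below 0.05. With replicate number as a block and no dye term the Scd1 estimate was 0.84 (adjusted p = 0.084), and at 0 h only 57 features in all were called without 0 h line array 1, against 287 with it.

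At 72 h, 4 of the 7 enzymes were lower in Y577F than in FI-Delta cells, with 6.45% of all features called lower and 12.9% called in either direction. Fdps stood 3.77-fold lower (-1.92 ± 0.09, limma adjusted p = 1.8e-07), Idi1 1.71-fold lower (-0.78 ± 0.12, adjusted p = 0.0014), Fdft1 1.47-fold lower (-0.55 ± 0.09, adjusted p = 0.0011) and Cyp51 1.32-fold lower (-0.40 ± 0.11, adjusted p = 0.034). The Cyp51 call was lost when any of 3 arrays was left out: 72 h line array 1 (adjusted p = 0.098), 72 h line array 2 (0.27) or Y577F time array 2 (0.066), and also on the direct arrays alone (0.1) and with scaled arrays (0.071). Scd1 and Fasn each gave -0.23 ± 0.12 (limma adjusted p = 0.26 and 0.27), and Sqle -0.28 ± 0.10 (adjusted p = 0.11). Under alternatives Scd1 was called lower with the replicate block and the dye term (-0.49, limma adjusted p = 0.03). Fasn was called lower with array weights (-0.32, limma adjusted p = 0.014), and Sqle was -0.34 without Y577F time array 2. The median over the 7 enzymes was -0.40, against 0.01 over all features.

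Placed on 1 scale with FI-Delta cells at 0 h as 0, the enzymes followed different orders over the 4 RNAs. For Fdps the levels of FI-Delta cells at 0 h and 72 h (0.15) and of Y577F cells at 0 h (-0.03) were not called different from each other, and Y577F cells at 72 h (-1.76) stood below all 3. Idi1 (-1.13 in Y577F cells at 72 h) and Fdft1 (-0.46) were likewise called lower in Y577F cells at 72 h than in each of the other RNAs, with no call among those. For Cyp51, Y577F cells ran from 0.33 at 0 h to -0.70 at 72 h, outside FI-Delta cells at 0 h (0) and 72 h (-0.30).

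For Scd1 the order from high to low was Y577F cells at 0 h (1.11), FI-Delta cells at 0 h (0), FI-Delta cells at 72 h (-0.89) and Y577F cells at 72 h (-1.12), and the last neighbours were not called different. Thus Y577F cells began higher and reached a level not called different from that of FI-Delta cells in this model. With the replicate block and the dye term, Scd1 was called lower in Y577F cells at 72 h. Fasn ran from 0 to -0.81 in the order FI-Delta 0 h, Y577F 0 h, FI-Delta 72 h, Y577F 72 h. No neighbours in that order were called different. Sqle kept within 0 to 0.30 with no pair of RNAs called different.

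**Figure D2:**
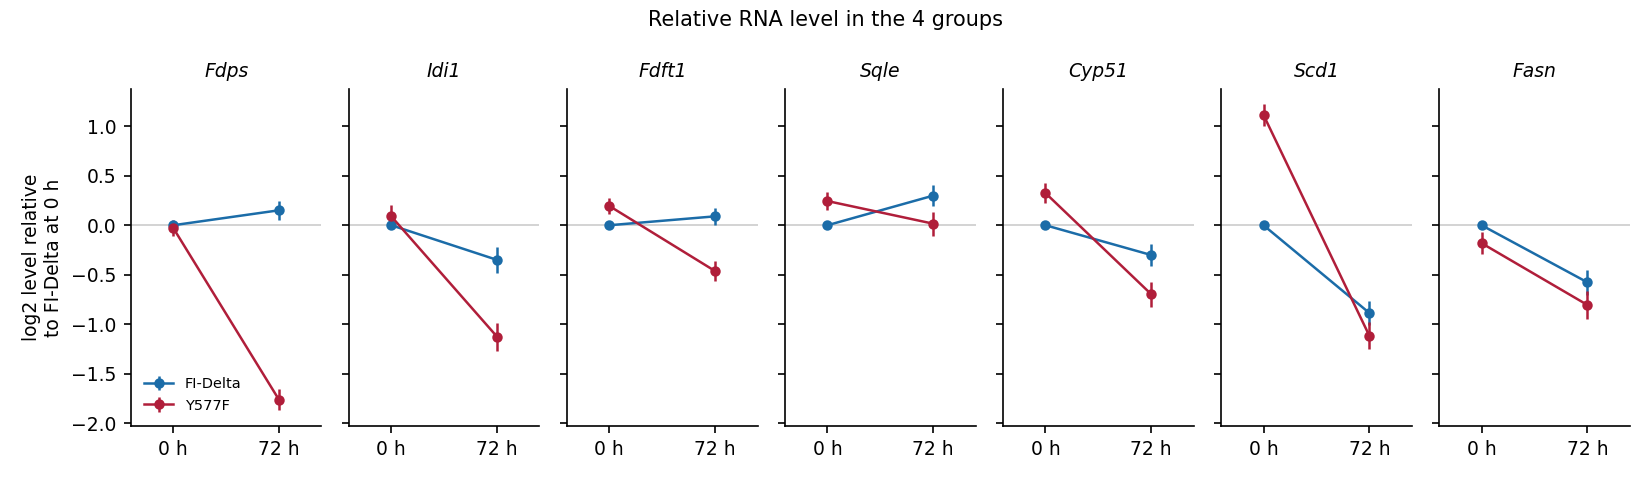
Log2 level of each enzyme in the 4 RNAs (horizontal axis), relative to FI-Delta cells at 0 h, which is fixed at 0. Error bars on the other RNAs are standard errors of the difference from that RNA, and Y577F cells at 72 h lie lowest for all enzymes but Sqle.

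The orders rest on 2 further contrasts of the same model. Comparing Y577F cells at 0 h with FI-Delta cells at 72 h, 2 of the 7 enzymes were higher, Scd1 by 2.00 ± 0.14 (limma adjusted p = 2.7e-06) and Cyp51 by 0.63 ± 0.12 (adjusted p = 0.0061), where 4.54% of features were called higher. Comparing Y577F cells at 72 h with FI-Delta cells at 0 h, 6 of the 7 were lower, all but Sqle (0.02, adjusted p = 0.97), where 5.62% of features were called lower. The design closes a loop, so the change in Y577F cells can also be read from the FI-Delta time arrays and the line arrays alone. That path gave -1.72 for Fdps against -1.75 on the direct arrays, and -2.38 against -2.18 for Scd1. For Sqle it gave -0.39 against -0.18, and for Fdft1 -0.51 against -0.71. Both paths draw on shared RNA extracts, so they are not independent. The gap between the paths was 0.21 or less in size for the 7 enzymes, and its median size over all features was 0.15.

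The enzymes also differed in how closely their whole profiles ran together. Over the 9 hybridisations, the cosine between an enzyme's ratios and the mean of the other 6 was 0.97 for Idi1, 0.96 for Cyp51, 0.88 for Fdft1, 0.81 for Fdps, 0.77 for Scd1, 0.68 for Fasn and 0.47 for Sqle (1 is the same direction, and hybridisations share RNA extracts). The 8 other named genes most like the mean of the 7 had cosines of 0.97 to 0.98. They were Yars and Asns, which make tyrosyl-tRNA and asparagine, Psat1 of serine synthesis, Septin1, Mphosph6, Tuba8, the RNA Snhg5 and Aen. Their modelled changes were -0.13 for Asns to -0.88 for Psat1 in FI-Delta cells and -0.66 for Aen to -2.43 for Psat1 in Y577F cells.

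Among 12 other measured genes of sterol synthesis (of 16 listed), 7 fell in Y577F cells and none rose, and in FI-Delta cells 1 rose and none fell. Over all features 8.75% were called lower in Y577F cells and 5.19% higher in FI-Delta cells, near the share of 1 in 12. The list's median was -0.42 in Y577F cells and 0.03 in FI-Delta cells. In Y577F cells Msmo1, which demethylates sterols, fell by 0.74 ± 0.10 (1.67-fold, limma adjusted p = 0.00031), and Pmvk, phosphomevalonate kinase, by 0.57 ± 0.10 (adjusted p = 0.0019). Hsd17b7, a sterol ketoreductase, fell by 0.51 ± 0.11 (limma adjusted p = 0.0078), and Lbr, a sterol reductase that is also a protein of the inner nuclear membrane, by 0.49 ± 0.11 (adjusted p = 0.0075). The count in Y577F cells was 3 instead of 7 without Y577F time array 2.

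Lbr was the gene that rose in FI-Delta cells (0.48 ± 0.11, limma adjusted p = 0.02), a call lost without 0 h line array 1, Y577F time array 1 or FI-Delta time array 3. The same 4 genes, Msmo1, Pmvk, Hsd17b7 and Lbr, were called lower in Y577F than in FI-Delta cells at 72 h and called for the difference in change, by -0.61 (Pmvk) to -0.97 (Lbr). Over all features 6.45% were called lower at 72 h and 4.91% were called lower for the difference. With array weights the count among the 12 at 72 h was 7. The 72 h call of Hsd17b7 was lost without 72 h line array 1 (limma adjusted p = 0.14), on the direct arrays alone (0.062), with no dye term (0.054) and with the replicate block and the dye term (0.13), and that of Pmvk without 72 h line array 2 (0.14). At 0 h none of the 12 was called by limma, and 3 had an unadjusted p below 0.05.

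Genes that draw on the pathway's other products, or that sense sterols, are read against the same shares of features called lower, 8.75% in Y577F cells and 2.97% in FI-Delta cells. Of 9 measured isoprenoid branch enzymes, none was called in FI-Delta cells (1 at an unadjusted p below 0.05) and 1 fell in Y577F cells, Coq2 of ubiquinone synthesis (-0.26 ± 0.08, limma adjusted p = 0.047), a call lost when any 1 array was left out and a share near that of all features. Of 6 measured genes of sterol sensing and LDL uptake, Stard4, a sterol carrier (-0.65 ± 0.14, adjusted p = 0.0056), and Insig1, which holds SREBP in the endoplasmic reticulum (-0.29 ± 0.08, adjusted p = 0.035), fell in Y577F cells. Neither was called without Y577F time array 2 (adjusted p = 0.089 and 0.21), and the Insig1 call was lost in 11 of 18 alternatives, 6 of them leaving out 1 array each. In FI-Delta cells 1 of the 6 fell, Srebf1, which encodes an SREBP (-0.44 ± 0.10, limma adjusted p = 0.021), a call lost without 0 h line array 1 or either of FI-Delta time arrays 2 and 3.

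Genes of sterol efflux, storage and lysosomal export went the other way. Of 10 measured, 7 rose in Y577F cells and 3 in FI-Delta cells, and none fell, with medians of 0.74 and 0.31. Over all features, 9.28% and 5.19% were called higher in these lines. Lipa, the lysosomal acid lipase that frees cholesterol from its esters, rose by 1.81 ± 0.09 in Y577F cells (3.5-fold, limma adjusted p = 2.6e-07) and 0.46 ± 0.10 in FI-Delta cells (adjusted p = 0.011). Npc1, which passes cholesterol out of the lysosome, rose by 1.13 ± 0.08 and 0.47 ± 0.09, and its partner Npc2 by 0.83 ± 0.09 and 0.34 ± 0.09 in the same order. The exporter Abcg1 rose in Y577F cells by 1.05 ± 0.12 (limma adjusted p = 9.2e-05) and stood at 0.28 ± 0.12 in FI-Delta cells (adjusted p = 0.24). The difference between the lines was called for 5 of the 10, all higher in Y577F cells as 4.33% of all features were, Lipa among them (1.35 ± 0.11, limma adjusted p = 2.4e-05). At 72 h, 6 of the 10 were higher in Y577F than in FI-Delta cells, and Scarb1 was lower (-0.77 ± 0.13, limma adjusted p = 0.0016). Of all 20243 features, 1304 were called higher and 1305 lower there. At 0 h Scarb1 alone was called, also lower (-0.79 ± 0.11, limma adjusted p = 0.0051), where 98 features were, a call lost in 3 of 18 alternatives. The FI-Delta count was 1 instead of 3 without FI-Delta time array 2, where Lipa was not called (adjusted p = 0.058). The Npc2 call in FI-Delta cells (limma adjusted p = 0.047) was lost in 13 of 18 alternatives, and without any 1 of 9 of the 10 arrays (0.053 to 0.13).

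**Figure D3:**
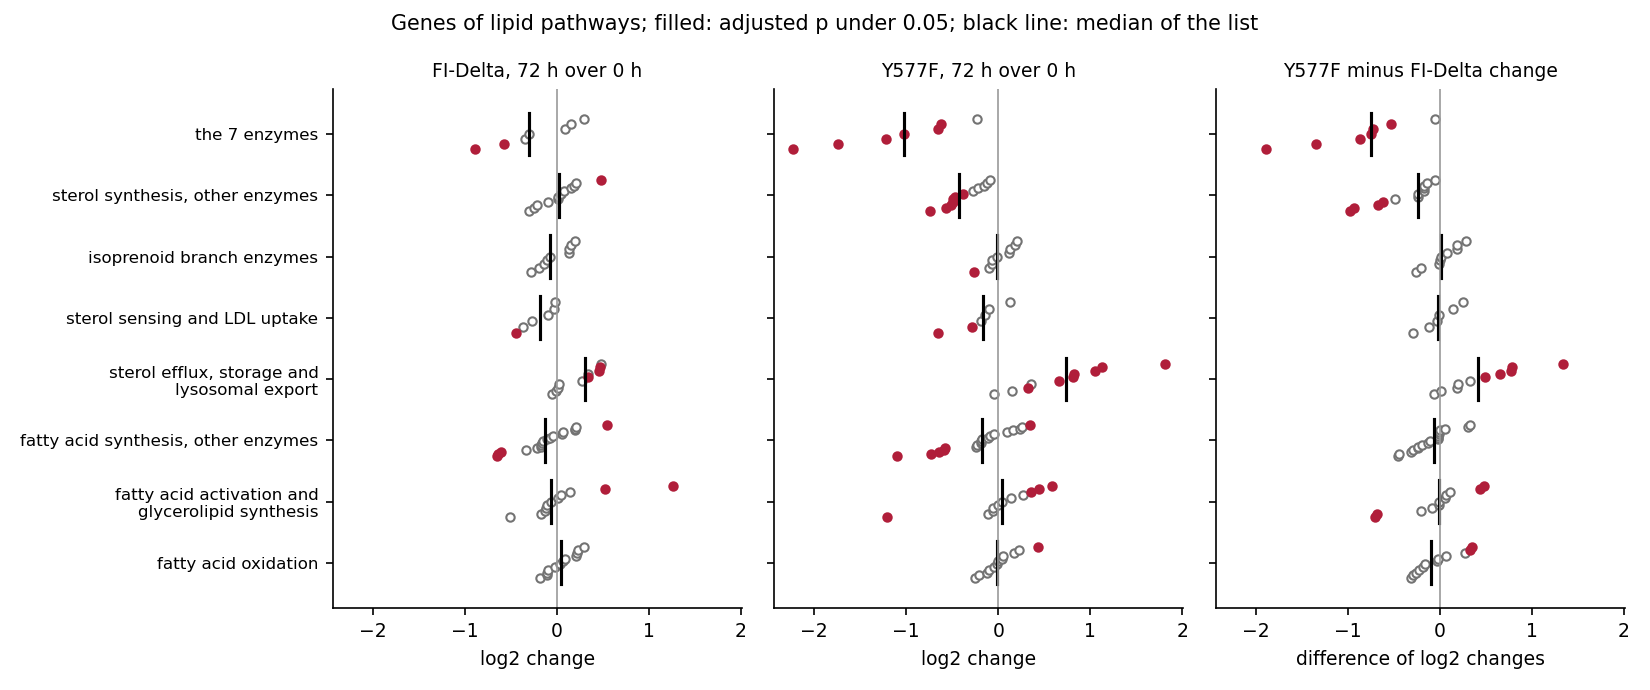
Estimated log2 change after 72 h of the measured genes of each pathway list (rows) in FI-Delta cells, in Y577F cells and as their difference (panels), on the same horizontal scale, with called genes filled and the list's median as a black line. The 12 other sterol synthesis genes all lie left of 0 in Y577F cells, and their median is -0.42, while the median of the efflux and lysosomal export genes is 0.74.

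Among 18 other measured genes of fatty acid synthesis and its supply, 5 fell and 1 rose in Y577F cells, and 3 fell and 1 rose in FI-Delta cells, with medians of -0.18 and -0.13. The shares of all features were 8.75% lower and 9.28% higher in Y577F cells, and 2.97% lower and 5.19% higher in FI-Delta cells, so 1 of 18 higher is no more than the background. Scd2, a close paralog of Scd1, fell by 1.10 ± 0.13 in Y577F cells (2.15-fold, limma adjusted p = 9.8e-05) and 0.65 ± 0.13 in FI-Delta cells (adjusted p = 0.01, and 0.089 without FI-Delta time array 2). Slc25a1, the carrier that brings citrate out of mitochondria, fell by 0.65 ± 0.11 and 0.64 ± 0.11, and the desaturase Fads1 by 0.73 ± 0.11 and 0.60 ± 0.12 in the same order. Acly, which makes cytosolic acetyl-CoA for both pathways, fell in Y577F cells (-0.59 ± 0.12, limma adjusted p = 0.0043, and 0.069 without Y577F time array 2) and stood at -0.15 ± 0.12 in FI-Delta cells (adjusted p = 0.58). The gene called higher in each line was the elongase Elovl7 (0.35 and 0.54), whose call was lost in 9 of 18 alternatives in Y577F cells, 6 of them leaving out 1 array each, and without FI-Delta time array 3 in FI-Delta cells. No gene of the 18 was called by limma for the difference between the lines, 8 had an unadjusted p below 0.05, and 3 were called with array weights.

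In fatty acid activation and glycerolipid synthesis, 3 of 11 measured genes rose and 1 fell in Y577F cells, where 9.28% of all features were called higher and 8.75% lower, and 2 rose in FI-Delta cells, where 5.19% were. The 1 fall among 11 is near the background. Dgat2, which completes triglyceride synthesis, rose more in FI-Delta cells (1.27 ± 0.09, 2.41-fold, limma adjusted p = 1.4e-05) than in Y577F cells (0.59 ± 0.09, adjusted p = 0.00079), and the difference was called (-0.68 ± 0.10, adjusted p = 0.002). Acsl3, an acyl-CoA synthetase of lipid droplets, fell 2.32-fold in Y577F cells (-1.21 ± 0.14, limma adjusted p = 0.00011) and stood at -0.50 ± 0.15 in FI-Delta cells (adjusted p = 0.06). Of 12 measured fatty acid oxidation genes, Cpt1a, which commits fatty acids to mitochondria, rose in Y577F cells (0.44 ± 0.08, limma adjusted p = 0.0028, and 0.057 without Y577F time array 1), and 1 in 12 is near the 9.28% of all features called higher. None of the 12 was called in FI-Delta cells, where 2 had an unadjusted p below 0.05.

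Marker genes of proliferation and of blood cell types moved in the same comparisons, in which 18.0% of all features were called in Y577F cells and 8.16% in FI-Delta cells (9.28% higher and 8.75% lower, and 5.19% higher and 2.97% lower). Of 14 measured mitosis genes, 10 fell in Y577F cells (median -0.52, range -1.01 to 0.15) and none was called in FI-Delta cells (median -0.01, range -0.15 to 0.34, with 2 at an unadjusted p below 0.05). The difference between the lines in the 72 h change was called for 9 of the 14, all lower in Y577F cells, as 4.91% of all features were. Of 11 measured monocyte and macrophage markers, 10 rose in each line, with a median of 2.09 (range 0.24 to 3.14) in Y577F cells and 0.86 (range 0.08 to 1.499) in FI-Delta cells. In FI-Delta cells 6 rose without FI-Delta time array 3. That difference was called higher in Y577F cells for 8 of these 11 and lower for 1 (median 0.92). Over all features 4.33% were called higher for it and 4.91% lower. Of 12 neutrophil granule markers, 10 rose in FI-Delta cells (median 1.17), while 5 fell and 1 rose in Y577F cells (median -0.29). For all 12 the difference between the lines in the 72 h change was called lower in Y577F cells (median -1.57). At 0 h, 11 of these 12 were lower in Y577F than in FI-Delta cells (median -1.06). Of all 20243 features, 98 were called lower and 189 higher in that comparison. In it 4 of 11 monocyte and macrophage markers were higher and 1 lower, and 2 of 9 mast cell and basophil markers were higher and 1 lower. No gene of the mitosis, erythroid and lymphoid lists was called at 0 h. Of 9 mast cell and basophil markers, 4 fell in each line and 1 rose in Y577F cells. Single calls in the lists are too few to read against those shares. Of 6 erythroid markers 1 fell in each line and 1 rose in Y577F cells, and none of 6 lymphoid markers was called by limma in either line, with 0 at an unadjusted p below 0.05. The part of proliferation and of cell type in the enzyme values was not tested.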

How the data were processed

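Total RNA was labelled with Cy5 or Cy3 and hybridised on 10 spotted arrays, per the labels. The authors deposited 1 log2 ratio for each spot and array, and the submitters' processing notes name limma, with no version or role. Base 2 and Cy5 over Cy3 were assumed, and no source used here gives the settings. Depth has no meaning for arrays, and their number limits precision (median SE 0.09 to 0.11). Of 23040 spots, 1243 controls were left out, and of 21797 probes 16651 had 1 symbol, 137 several and 5009 none. Probes of 1 symbol were averaged, giving 20243 features. Signs were turned by the titles. A limma 3.58.1 (R 4.3.3) model had 3 RNA coefficients and a dye term, with the dye swap averaged (5 residual degrees of freedom), tested on simulated data first. Named genes were all 7 enzymes, up to 4 called genes per direction, pathway list and comparison, and the 8 genes of highest cosine; marker lists are given as counts. Genes, lists and tests were chosen with earlier results of these data known. Alternatives changed the dye term, replicate block, arrays used, weights, scaling and probe averaging. Gene positions are given only for promoters.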

Additional observations from a re-analysis of the deposited data

Results flagged for a closer look

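For 21 genes, taken from the 7 enzymes and the named genes of the pathway lists, the change over 72 h differed between the lines by a called interaction in the limma model (Y577F minus FI-Delta, log2). Over all features 9.24% were called for this difference. The pathway genes had been named because they were called in some comparison, this one included, so the count of 21 is partly set by that choice. Among the enzymes, the difference was -1.89 for Fdps, -1.34 for Scd1, -0.87 for Idi1, -0.75 for Fdft1, -0.72 for Cyp51 and -0.53 for Sqle. Fdps, Fdft1 and Sqle had estimates of opposite sign in the lines, although those of FI-Delta cells were not called. For Sqle the estimate in Y577F cells was not called either.

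In the other sterol synthesis genes it was -0.97 for Lbr, -0.93 for Msmo1, -0.67 for Hsd17b7 and -0.61 for Pmvk. In sterol efflux and lysosomal export it was 1.35 for Lipa, 0.79 for Ch25h (an oxysterol-making enzyme), 0.77 for Abcg1, 0.65 for Npc1 and 0.49 for Npc2. In glycerolipid synthesis it was -0.71 for Acsl3, -0.68 for Dgat2, 0.49 for Agpat3 and 0.44 for Agpat1, and in fatty acid oxidation 0.35 for Cpt1a and 0.34 for Acads. Of these, the calls for Sqle, Acsl3, Agpat1, Agpat3, Cpt1a and Acads were lost when at least 1 single array was left out.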

How the results depend on the processing

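The number of enzymes called in Y577F cells, at 72 h between the lines and for the difference in change stayed within 1.5 times the reported 6, 4 and 6 under every alternative that was run. In FI-Delta cells, where 2 were reported, 4 were called with array weights (among them Fdps as higher, 0.24, adjusted p = 0.041, and Idi1 as lower, -0.29, adjusted p = 0.048), 1 with the replicate block and no dye term, 1 with Fasn averaged with its control spots (an alternative chosen after seeing the data), and 1 to 2 when single arrays were left out. At 0 h, where 1 was reported, 2 were called with array weights and 0 with the replicate block and no dye term. The replicate numbers on the arrays are shared by 2 cultures of each line at most, and their reading is uncertain, so the block was not used as a pairing; with the block and the dye term the counts were 2 in FI-Delta cells, 6 in Y577F cells, 1 at 0 h, 5 at 72 h and 6 for the difference. Over all features, 1652 were called in FI-Delta cells (887 to 3786 under the alternatives), 3649 in Y577F cells (1949 to 4247), 287 at 0 h (21 to 445), 2609 at 72 h (979 to 5537) and 1871 for the difference (911 to 2475). The causes of these shifts were not tested.

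Signs turned for small values only, apart from Fasn. At 0 h, Idi1 was -0.18 with the replicate block and the dye term, -0.17 with the block and no dye term and 0.00 without 0 h line array 3, and Fdps was 0.011 with array weights. With single arrays left out, Fdps at 0 h ran from -0.082 to 0.061 (without 0 h line array 1), Idi1 at 0 h from 0.00 to 0.32, Scd1 at 72 h from -0.38 to 0.012 (without 72 h line array 2), and the Fasn difference in change from -0.17 to 0.036 (0.022 without 0 h line array 3 and 0.036 without Y577F time array 2). With its control spots, Fasn changed by 0.18 in FI-Delta and 0.072 in Y577F cells.

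Each line had 2 cultures, the median SE of a change was 0.09 to 0.11, and spot intensities, which would show signal over background, were not used here.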

Other observations

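Besides the probe used above, 2 control spots carry the name Fasn, and they disagreed with it and with each other. The identifier of 1 of the 2 holds the word Empty. Spot 1 read 0.05, -0.38 and 1.49 on the FI-Delta time arrays and -0.06 and 0.55 on the Y577F time arrays. Spot 2 read 0.74, 0.21 and 0.52 on the FI-Delta time arrays and 0.67 and 0.70 on the Y577F time arrays. The first spot thus had no steady direction, while the second was above 0 on all 5 time arrays, where the probe was below 0 on all 5.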
